A study of Mus musculus with 72 samples.

Results

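The 8 genes described here encode transducers of G-protein-coupled receptors: the G-protein α-subunits Gnaq and Gna11 of the q class, Gna12 and Gna13 of the 12/13 class, and the phospholipase C β-isoforms Plcb1, Plcb2, Plcb3 and Plcb4. They were chosen by symbol and were 8 of the 50600 genes in the count table, and all 8 were listed there for all 72 libraries. The libraries came from 6 mouse melanoma cell lines, each given 4 treatments with 3 replicates, and the question was which of these genes each line expressed and whether their RNA changed with treatment. Mock cells received 0.1% DMSO, GRP cells 10 nM gastrin-releasing peptide, the ligand of the receptor GRPR, RC cells 1 µM of the GRPR antagonist RC-3095, and GRP+RC cells both. Treatment lasted 4 h and followed 18 h in 0.5% serum.

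All lines were derived from melanomas of mice carrying Tyr::NRASQ61K/°, an oncogenic NRAS driven by the tyrosinase promoter of pigment cells. The female lines 1057 and 1064 also carried Cdkn2a-/-, Tyr::CreA/° and Cdh1dF/dF, which removes E-cadherin where the Cre is active, and were labelled GRPR-positive. The male line 1181 carried Cdkn2a-/- and Cdh1dF/dF without the Cre, and the female line 1014 carried the NRAS transgene alone. Both were transfected and selected with CMV::Grpr/tGFP (1181-Grpr and 1014-Grpr, GRPR-positive) or with CMV::tGFP (1181-Ctrl and 1014-Ctrl, GRPR-negative), so that the receptor in the transfected lines came from a viral promoter. Each parental line stood for 1 genotype or shared it with 1 other, and line, genotype and transfection cannot be told apart.

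On GRCm38, the files' build, Gnaq (ENSMUSG00000024639) lies at chr19:16132831-16387463 on the plus strand and Gna11 (ENSMUSG00000034781) at chr10:81528724-81545190 on the minus strand. Gna12 (ENSMUSG00000000149) lies at chr5:140758408-140830431 on the minus strand and Gna13 (ENSMUSG00000020611) at chr11:109362831-109401369 on the plus strand. Plcb1 (ENSMUSG00000051177) lies at chr2:134786067-135475258 on the plus strand with Plcb4 (ENSMUSG00000039943) downstream of it at chr2:135659011-136014593, Plcb2 (ENSMUSG00000040061) at chr2:118707517-118728438 on the minus strand, and Plcb3 (ENSMUSG00000024960) at chr19:6952325-6976470 on the minus strand.

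GRPR signals mainly through the q class of G proteins. Active Gαq and Gα11 switch on phospholipase C-β, which splits a membrane phosphoinositide into inositol trisphosphate, which releases calcium from internal stores, and diacylglycerol, which activates protein kinase C. Gα12 and Gα13 act mainly on the actin cytoskeleton, through exchange factors for small GTPases and the kinases below them. Activating mutations of GNAQ, GNA11 and PLCB4 are known from uveal melanoma, so the pathway is one that pigment cells can use.

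Counted reads ranged from 19512882 to 46862053 per library. The melanocyte markers Mitf, Sox10, Dct, Pmel, Tyr, Tyrp1 and Mlana were each above 1 TPM (transcripts scaled to gene length and library total) in all libraries and summed to between 7163 and 56650 TPM, while markers of other cells summed to at most 167 (haematopoietic, mainly Lyz2 and Cd68, with Ptprc at 0 to 0.05), 13.5 (fibroblast), 6.24 (endothelial) and 2.28 TPM (epithelial). Grpr was at 12.4 TPM or more in the libraries labelled GRPR-positive and at 0.14 TPM or less in those labelled GRPR-negative, with 1 exception on each side, and Cdh1 was at 0.08 TPM or less in 1057 and 1064. The library labelled 1014-Ctrl mock replicate 2 held 69.8 TPM of Grpr and 45.3 TPM of the Y-linked gene Ddx3y, and the library labelled 1181-Grpr GRP+RC replicate 2 held neither gene. The other 11 libraries of the male-labelled 1181-Grpr held both Ddx3y (27.5 to 45.0 TPM) and the female-specific Xist (39.7 to 53.9 TPM, against 0.14 TPM or less in 1181-Ctrl), which was so in all its treatments. The exceptional 1014-Ctrl library had 35.1 TPM of Xist and 18.2 TPM of Cdh1, against 118 to 218 and 1.52 to 4.05 TPM in the others of that line. The exceptional 1181-Grpr library had 162 TPM of Xist and 3.68 TPM of Cdh1, where the others had 7.84 to 20.5 TPM of Cdh1. Whether the 2 libraries were exchanged was not tested. The main values that used the 2 exceptional libraries are also given without them. The spread between replicates also differed among lines: the common biological coefficient of variation, the replicate spread that the model fits over all genes, was 0.0387 in 1057, 0.11 in 1014-Grpr, 0.183 in 1014-Ctrl and between 0.232 and 0.265 in the other 3 lines, so a change of a given size had a smaller standard error in 1057.

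All 4 α-subunits were abundant in all libraries. As bulk RNA was measured, fewer expressing cells and less RNA per cell cannot be told apart. Levels between genes are compared in TPM, which takes account of transcript length. Over the 72 libraries Gna11 ranged from 98.4 to 171 TPM with a median of 128, Gna12 from 79.5 to 149 with a median of 104, Gnaq from 44.7 to 109 with a median of 65.6, and Gna13 from 42.1 to 75.8 with a median of 59.4. Their mean levels were at the 93.4th, 91.5th, 85.7th and 82.6th percentiles of the 19475 genes with a mean above 0.1 TPM. The remaining members of the q class, Gna14 and Gna15, did not exceed 0.24 and 0.22 TPM in any library, so that q-class RNA was that of Gnaq and Gna11 in all lines.

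Gnaq encodes Gαq itself and was the α-subunit that varied most between lines. In mock cells of 1057 it stood at 95.5, 101 and 103 TPM, in 1064 at 99.9, 72.6 and 69.5 TPM, and in 1014-Grpr at 46.4, 44.7 and 58.3 TPM. The other lines held 61.0 to 73.0 TPM (1181-Ctrl), 60.6 to 66.4 TPM (1181-Grpr) and 60.0 to 65.2 TPM (1014-Ctrl). All 3 libraries of 1057 were above all libraries of the 4 transfected lines, those of 1014-Grpr were below all others, and 1 library of 1064 reached the range of 1057. By the quasi-likelihood test of edgeR, with p-values adjusted after Benjamini and Hochberg over all genes of all 15 pairs of lines, Gnaq was 1.27 higher on the log2 scale in 1057 than in 1014-Grpr (SE 0.109, adjusted p = 3.81e-07). It was also higher in 1057 than in 1064 (0.35, adjusted p = 0.0169), in 1064 than in 1181-Ctrl (0.59, adjusted p = 0.000411) and in 1181-Grpr than in 1014-Grpr (0.30, adjusted p = 0.0350). The neighbours 1181-Ctrl, 1014-Ctrl and 1181-Grpr in this order did not differ beyond their spread (adjusted p = 0.960 and 0.817).

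Gna11 encodes Gα11, which couples to the same receptors as Gαq. Its mock means lay between 120 TPM in 1064 and 154 TPM in 1014-Grpr. Without the doubtful library the mean of 1014-Ctrl went from 145 to 156 TPM, above that of 1014-Grpr. No neighbours in the order of lines passed the test. On the scale used for testing, the span of Gna11 over the lines was 1.34-fold against 2.43-fold for Gnaq. The balance of the pair therefore moved mostly with Gnaq. Gnaq made up 43.0% ± 1.84 (SD, n = 3) of the summed Gnaq and Gna11 TPM in mock 1057, 40.1% ± 4.68 in 1064, 34.5% ± 1.18 in 1181-Ctrl, 33.7% ± 0.862 in 1181-Grpr, 30.6% ± 3.55 in 1014-Ctrl (28.3% and 28.8% without the doubtful library) and 24.4% ± 1.16 in 1014-Grpr. Gna11 was the larger part in every mock library, since the share of Gnaq reached at most 45.3%. Between 1014-Grpr and 1014-Ctrl, which differ by label in the receptor plasmid, Gnaq was the 1 member that passed (log2 −0.34, SE 0.107, adjusted p = 0.0198, and −0.32 with adjusted p = 0.0375 without the doubtful library), where 6.26% of all genes passed, or 2.68% without that library. This difference of Gnaq was lost under 3 of 10 alternatives.

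Gna12 and Gna13 encode the α-subunits that act on the actin cytoskeleton. Gna12 was the more abundant, at 59.2% to 67.5% of the summed TPM of the pair in the line means. In mock cells Gna12 was lowest in 1181-Ctrl on the scale used for testing, where it differed from all 5 other lines. In TPM its mean of 91.3 in 1181-Ctrl lay close to 92.3 in 1064 and 94.0 in 1057. The differences of 1181-Ctrl from 1064, 1057 and 1181-Grpr were lost under 4, 2 and 2 of 10 alternatives. The values in 1181-Ctrl were 79.7, 94.1 and 100 TPM against 118, 115 and 120 TPM in 1181-Grpr, with no overlap, and the difference of 1181-Grpr over 1181-Ctrl was 0.42 on the log2 scale (SE 0.107, adjusted p = 0.00490, edgeR quasi-likelihood test). The libraries of 1181-Grpr also held the Xist RNA that 1181-Ctrl lacked, and its part in this difference was not tested. The values of 1014-Ctrl were 144, 114 and 149 TPM, of which the lowest is the library that went against its label, and Gna12 in 1181-Ctrl was 0.66 below them (adjusted p = 0.000162) or 0.78 below without that library (adjusted p = 6.44e-06). About 13.3% of the exon bases of Gna12 are overlapped by Amz1 on the other strand, a limit on this gene if strand was not used in counting. On the testing scale Gna13 was the most even α-subunit, with mock means from 47.9 ± 0.619 TPM in 1057 to 70.8 ± 5.10 TPM in 1181-Grpr, a span of 1.20-fold on the testing scale but 1.48-fold in TPM, where Gna11 spanned 1.29-fold, and 1 of its 15 pairs of lines passed (1064 below 1181-Grpr by 0.27, adjusted p = 0.0420).

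Phospholipase C-β was represented by Plcb3 and Plcb4. Plcb3, the widely expressed isoform, ranged from 55.5 to 150 TPM over the 72 libraries and made up between 70.7% and 85.1% of the summed β-isoform TPM in the mock line means, with Plcb4 making up 14.8% to 29.1%. On the testing scale Plcb3 was even between lines, with a span of 1.255-fold, but its span in TPM was 1.61-fold. Its mock means ran from 80.7 ± 3.19 TPM in 1057 to 130 ± 19.3 TPM in 1181-Ctrl, and that pair was the 1 of 15 that passed (−0.33 in 1057, SE 0.125, adjusted p = 0.0447). Plcb4, an isoform known from retina and brain, stood at 53.5, 36.8 and 29.9 TPM in mock 1064 and at 17.6, 19.1 and 18.6 TPM in mock 1014-Grpr. All 3 libraries of 1064 were above those of 1014-Grpr, and they were also spread more widely than those of any other line. Plcb4 was higher in 1064 than in each other line, by 1.34 on the log2 scale over 1014-Grpr (SE 0.203, adjusted p = 8.94e-05) and by 0.74 over 1057, the nearest line (adjusted p = 0.00738). Against 1014-Ctrl, where the mock values were 17.5, 28.5 and 17.7 TPM with the highest in the doubtful library, the difference was 1.15 (adjusted p = 0.000321), and 1.41 without it (adjusted p = 1.84e-05).

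Plcb1 and Plcb2 were near or at the limit of detection. Plcb1, an isoform of brain and other tissues, ranged from 0 to 0.69 TPM and was the member with the largest span over lines, 14.8-fold between mock line means. Its counts in mock 1057 were 52, 54 and 58, whereas the median over the 12 libraries of 1181-Grpr, 1014-Grpr and 1014-Ctrl was 5.5, 4.5 and 4.5 counts. The order of the mock means was 1057 (0.457 ± 0.0351 TPM), 1064 (0.273 ± 0.216), 1181-Ctrl (0.170 ± 0.0964), 1181-Grpr (0.0600 ± 0.0656), 1014-Ctrl (0.0533 ± 0.00577) and 1014-Grpr (0.0367 ± 0.0306), and no neighbours in it passed the test. Plcb1 was higher in 1057 than in 1181-Grpr, 1014-Grpr, 1181-Ctrl and 1014-Ctrl, by 3.16 (adjusted p = 0.00158), 3.78 (adjusted p = 0.00068), 1.80 (adjusted p = 0.0283) and 3.28 (adjusted p = 0.00153, or 3.27 with adjusted p = 0.00320 without the doubtful libraries), in the fit with edgeR's quasi-likelihood test. It was higher in 1064 than in 1181-Grpr, 1014-Grpr and 1014-Ctrl by at least 2.38 on the log2 scale. With counts this low the sizes depend on the prior count of the fit. Plcb2, the isoform of blood cells, had 0 to 6 counts per library, was at 3 counts or fewer in 67 of 72 libraries and at 0 in 26, and entered no test. A count of 3 corresponds to at most 0.154 CPM (counts scaled to the library total) in any library, the level below which these libraries could not show it.

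**Figure D1:**
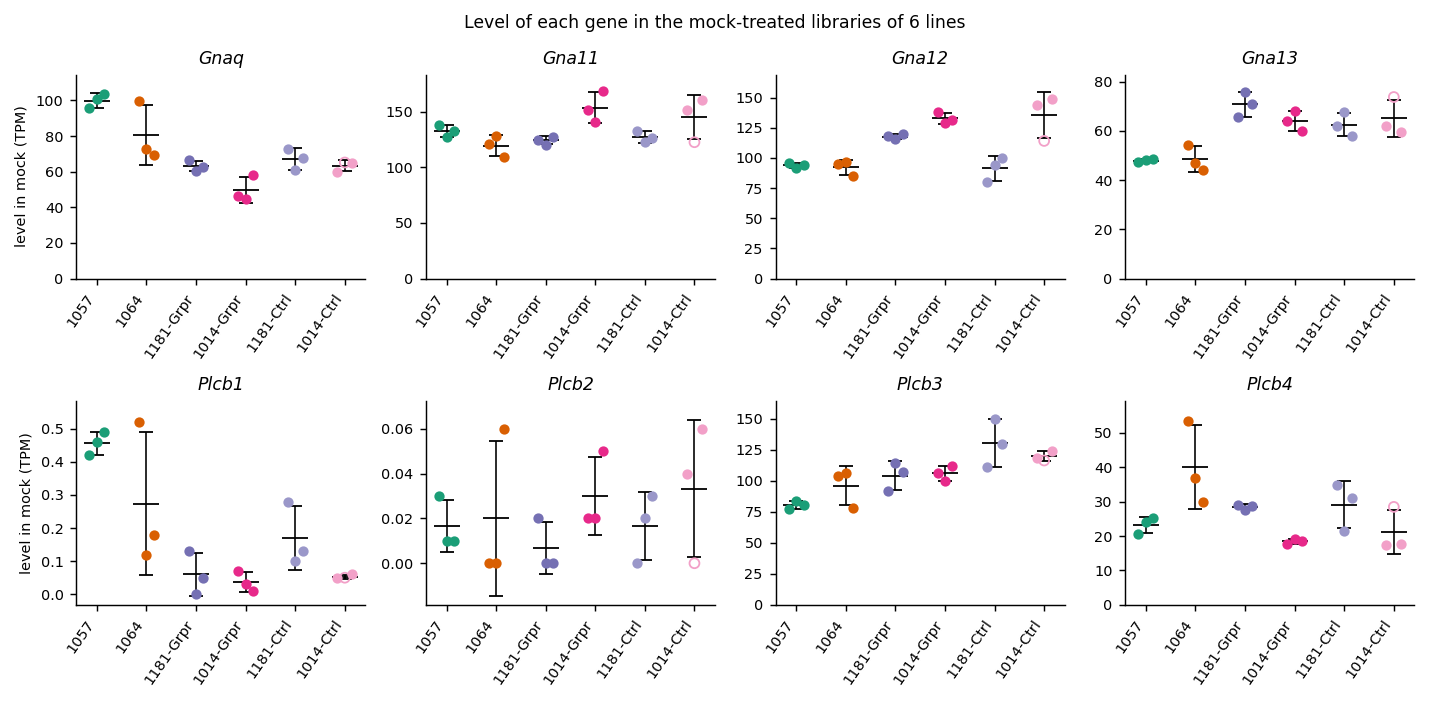
Level of each of the 8 genes in mock cells of the 6 lines, in TPM, 1 panel per gene, on axes that start at 0 or, for Plcb1 and Plcb2, just below it; points are the 3 replicates, bars the mean ± SD, and the open circle the library labelled 1014-Ctrl mock replicate 2. Gnaq falls from 99.9 TPM in 1057 to 49.8 TPM in 1014-Grpr, Plcb4 is highest in 1064, and Plcb1 and Plcb2 stay below 1 TPM.

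Taken over all 15 pairs of lines and the 7 genes that could be tested, 42 of 105 differences passed an adjusted p of 0.05, where 42.2% of all gene and pair tests passed. With a log2 difference above 1 as well, 10 of the 105 were called, against 22.9% of all tests, and these were 7 for Plcb1, 2 for Plcb4 and 1 for Gnaq. Gnaq passed in 12 pairs, Plcb4 in 8, Gna12 and Plcb1 in 7 each, Gna11 in 6, and Gna13 and Plcb3 in 1 each. Without the 2 doubtful libraries 54 passed, beside 48.3% of all tests, and 10 were called, with Gna12 and Plcb4 then passing in 11 pairs each and Gna11 in 9. In TPM the median gene was 0.23 to 0.36 lower on the log2 scale in 1057 and 1064 than in the transfected lines, so their positive differences shrank in TPM and their negative ones grew. Gna11 in 1057 over 1181-Grpr was 0.40 on the testing scale and 0.09 in TPM, and Gna12 in 1057 over 1181-Ctrl was 0.40 and 0.05, whereas Plcb3 in 1057 against 1181-Ctrl was −0.33 and −0.68, and Gna13 in 1064 against 1181-Grpr −0.27 and −0.55. None of the 42 changed direction, but on log2 TPM 10 of them no longer passed and 32 still did (limma). When each replicate number was left out in turn, the 42 differences passed in 74 of the refitted results and were lost in 52. The pair that passed for Gna13, 1064 against 1181-Grpr, was lost under 6 of 10 alternatives.

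Treatment with GRP changed the RNA of 4 of the 7 testable genes in line 1057, where 52.6% of the 14195 genes tested passed. Plcb1, Gnaq and Gna13 rose and Plcb3 fell, and none changed by more than 1 on the log2 scale, a size that 6.46% of all genes reached. The contrasts of GRP, RC and GRP+RC with mock share the 3 mock libraries, and the values of all 4 treatments are given side by side. Plcb3 had 98.9, 104 and 99.5 normalised CPM in mock cells, 72.2, 78.0 and 74.2 with GRP, 98.3, 93.2 and 94.4 with RC, and 84.2, 84.5 and 84.4 with both. Every GRP library was below every other library, and the GRP+RC libraries lay between the GRP and the mock ones without overlap. The RC libraries were also all below the mock ones, though RC against mock did not pass, and 38.4% of all genes did not overlap there. Plcb3 fell by 0.43 with GRP against mock (SE 0.0353, 95% interval −0.51 to −0.36, adjusted p = 7.82e-09, edgeR quasi-likelihood test, adjusted over all genes tested in the line). It was 0.17 higher with GRP+RC than with GRP alone (SE 0.0357, adjusted p = 0.00130) and 0.26 lower with GRP+RC than in mock (SE 0.0350, adjusted p = 8.53e-06), where 24.7% and 44.3% of all genes passed.

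Plcb1 in 1057 had 52, 54 and 58 counts in mock cells, 76, 78 and 83 with GRP, 48, 53 and 48 with RC, and 57, 45 and 64 with both. The GRP libraries were above all others. Plcb1 rose by 0.61 with GRP (SE 0.161, 95% interval 0.27 to 0.95, adjusted p = 0.00391) and was 0.54 lower with GRP+RC than with GRP (SE 0.161, adjusted p = 0.0182, edgeR quasi-likelihood test). Its level stayed at or below 0.69 TPM, against at least 55.5 TPM for Plcb3 in the same cells, and the second of these calls was lost when any of 4 libraries was left out.

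Gnaq in 1057 had 179, 185 and 188 normalised CPM in mock cells and 205, 200 and 206 with GRP, with no overlap, and rose by 0.15 (SE 0.0331, adjusted p = 0.00111, edgeR quasi-likelihood test). On log2 TPM the change was 0.07 and no longer passed (adjusted p = 0.118, limma). With GRP+RC it stood at 195, 206 and 207 normalised CPM, 0.14 above mock (adjusted p = 0.00211). The values with GRP and with GRP+RC overlapped, and the difference between them was −0.01 (95% interval −0.08 to 0.06, adjusted p = 0.922). Gna13 had 92.1, 91.4 and 91.3 normalised CPM in mock cells and 101, 95.7 and 96.2 with GRP, and rose by 0.09 (SE 0.0317, adjusted p = 0.0195). Its groups did not overlap, as for 57.7% of all genes tested. The GRP group rested on replicate 1, without which the change was 0.07 with adjusted p = 0.0833 (edgeR). On log2 TPM the change was 0.02 (adjusted p = 0.643, limma).

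Gna11 and Gna12 also gave small changes in 1057. Gna11 had 172, 154 and 159 normalised CPM in mock cells, 172, 176 and 177 with RC, 158, 154 and 157 with GRP, and 167, 175 and 167 with GRP+RC. It was 0.12 higher with RC than in mock (SE 0.0360, adjusted p = 0.0260), where 24.3% of genes passed, and 0.12 higher with GRP+RC than with GRP (adjusted p = 0.0217, edgeR quasi-likelihood test), and the first of these calls was lost when any of 4 libraries was left out and the second when any of 3 was. Gna12 had 99.5, 92.6 and 94.7 normalised CPM in mock cells and 91.2, 90.1 and 91.5 with GRP. It had 94.3, 92.2 and 95.4 with RC and 85.3, 88.2 and 88.2 with GRP+RC. Gna12 was 0.13 lower with GRP+RC than in mock (SE 0.0327, adjusted p = 0.00293, edgeR quasi-likelihood test). Its GRP libraries were also all below the mock ones, though GRP against mock did not pass, and the RC libraries overlapped mock. Plcb4 did not pass in any contrast of 1057, and its GRP value was −0.12 (adjusted p = 0.0786). In 1 fit of all 72 libraries, where the lines share 1 spread, the fall of Plcb3 with GRP was the only one of these calls that remained, and Gnaq, Gna13 and Plcb1 had adjusted p = 0.576, 0.762 and 0.459 with GRP.

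**Figure D2:**
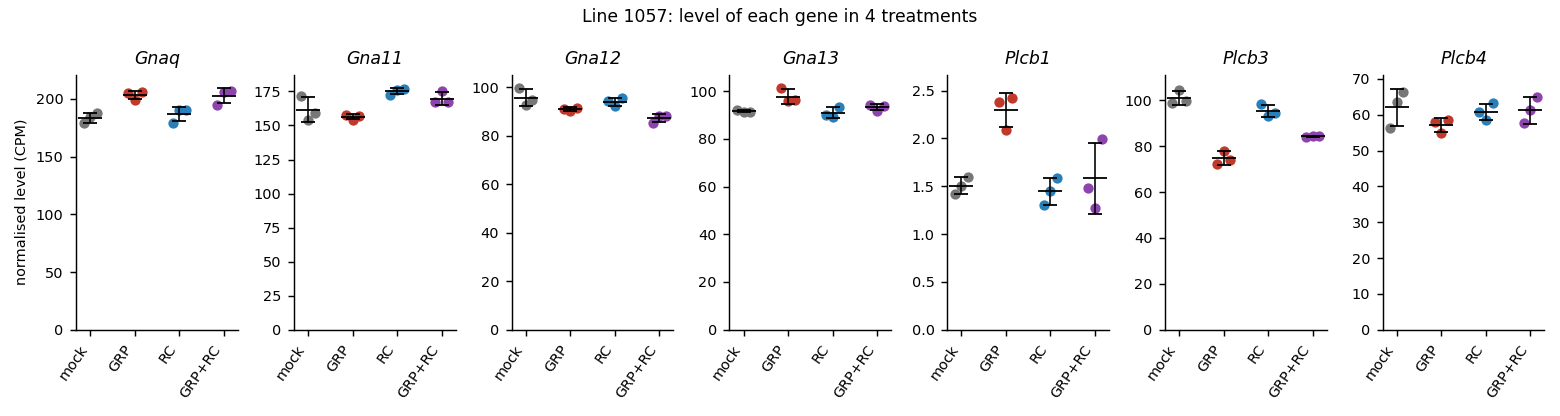
Normalised CPM of the 7 testable genes in line 1057 under the 4 treatments; points are the 3 replicates and bars the mean ± SD, on axes that start at 0. The 3 GRP libraries of Plcb3 lie between 72.2 and 78.0, below every other library of the line, and those of Plcb1 lie above every other library.

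The promoters of Gnaq, Gna13 and Plcb3 are shown because these are the abundant members that moved with GRP in 1057, Gnaq and Gna13 upwards and Plcb3 downwards. Each is the 250 bases before the RefSeq start site on GRCm38.p6, given 5′ to 3′ on the strand of the gene. Capitals mark matches, on either strand, to the GC box GGGCGG (bound by Sp factors), the E-box CACGTG and the AP-1 motif TGANTCA. Gnaq lies on the plus strand with its window at chr19:16132434-16132683, Gna13 on the plus strand at chr11:109362544-109362793, and Plcb3 on the minus strand at chr19:6969815-6970064, inside the longer span that GENCODE gives the gene.
Gnaq: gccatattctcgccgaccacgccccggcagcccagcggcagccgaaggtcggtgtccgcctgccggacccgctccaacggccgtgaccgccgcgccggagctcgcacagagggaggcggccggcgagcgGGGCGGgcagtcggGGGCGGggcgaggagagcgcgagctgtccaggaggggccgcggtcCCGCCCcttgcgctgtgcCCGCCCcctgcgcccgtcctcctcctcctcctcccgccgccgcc
Gna13: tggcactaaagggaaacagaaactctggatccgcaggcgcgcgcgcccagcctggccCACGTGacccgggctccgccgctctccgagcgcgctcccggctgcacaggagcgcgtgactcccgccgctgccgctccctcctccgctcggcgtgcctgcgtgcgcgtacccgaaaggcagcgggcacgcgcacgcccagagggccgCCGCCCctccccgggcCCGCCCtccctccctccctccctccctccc
Plcb3: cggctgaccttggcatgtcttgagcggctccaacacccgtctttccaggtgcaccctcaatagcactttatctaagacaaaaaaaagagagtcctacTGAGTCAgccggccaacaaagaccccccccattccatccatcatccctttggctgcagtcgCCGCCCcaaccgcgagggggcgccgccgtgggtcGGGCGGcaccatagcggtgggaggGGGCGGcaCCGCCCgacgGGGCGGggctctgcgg
The window of Gnaq held 4 GC boxes, that of Gna13 held 2 with 1 E-box at 193 bases from the start, and that of Plcb3 held 5 with 1 AP-1 match at 153 bases. The GC box occurred in 32.7% of 32851 RefSeq promoters of this length, the E-box in 6.02% and the AP-1 motif in 6.75%. Of the other members, Gna11 had 2 GC boxes, Gna12 had 4 with 2 CCAAT matches, Plcb1 had 1, Plcb2 had 0, and Plcb4 had 7 in the first of its promoters and 0 in the second. No window of the 8 genes held the letters TGACG, found in 17.8% of promoters. The GC content was 79.2%, 76% and 64.4% in the 3 windows shown, against a median of 52.4%. These matches are descriptions of the letters only.

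No member passed GRP against mock in any of the other 5 lines by edgeR's quasi-likelihood test or by DESeq2. At an unadjusted p under 0.05 there was 1 in 1014-Grpr (Gna12) and 0 in 1064, 1181-Grpr, 1181-Ctrl and 1014-Ctrl, while 6.38% of all genes passed in 1064, 29% in 1014-Grpr and 0 in the other 3. For Plcb3, the gene with the clearest change in 1057, the GRP values were −0.06 in 1064 (95% interval −0.34 to 0.21), −0.06 in 1014-Grpr (−0.19 to 0.06) and −0.02 in 1181-Grpr (−0.37 to 0.34). In the GRPR-negative lines they were −0.01 in 1181-Ctrl (−0.36 to 0.34) and −0.03 in 1014-Ctrl (−0.15 to 0.09), or −0.05 without the doubtful mock library. None of these 5 intervals reached the −0.43 of 1057, but those of 1181-Grpr and 1181-Ctrl overlapped the interval of 1057. The difference itself, fitted over the 36 mock and GRP libraries of all lines with 1 common spread, was −0.38 to −0.46 between 1057 and each other line and did not pass by edgeR or DESeq2, with an unadjusted p under 0.05 in all 5 (adjusted p from 0.228 to 0.374, edgeR quasi-likelihood test). Of all genes 0.893% passed for this difference against 1064, 2.36% against 1181-Grpr, 1.73% against 1014-Grpr, 2.7% against 1181-Ctrl and 3.84% against 1014-Ctrl. With the replicate number within each line as a block, the difference of Plcb3 passed against all 5 lines (−0.38 to −0.46, adjusted p from 0.000219 to 0.00104, edgeR). There 7.87% to 18.5% of genes passed and no other member did. In 1057 mock and GRP libraries with the same number were not shown to be paired (correlation 0.00758 to 0.0483). In 1181-Grpr and 1014-Ctrl these correlations were at least 0.497 and 0.118. For Plcb1 the difference of the GRP effect between 1057 and the other lines was 0.38 to 1.10 with adjusted p from 0.733 to 0.973.

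**Figure D3:**
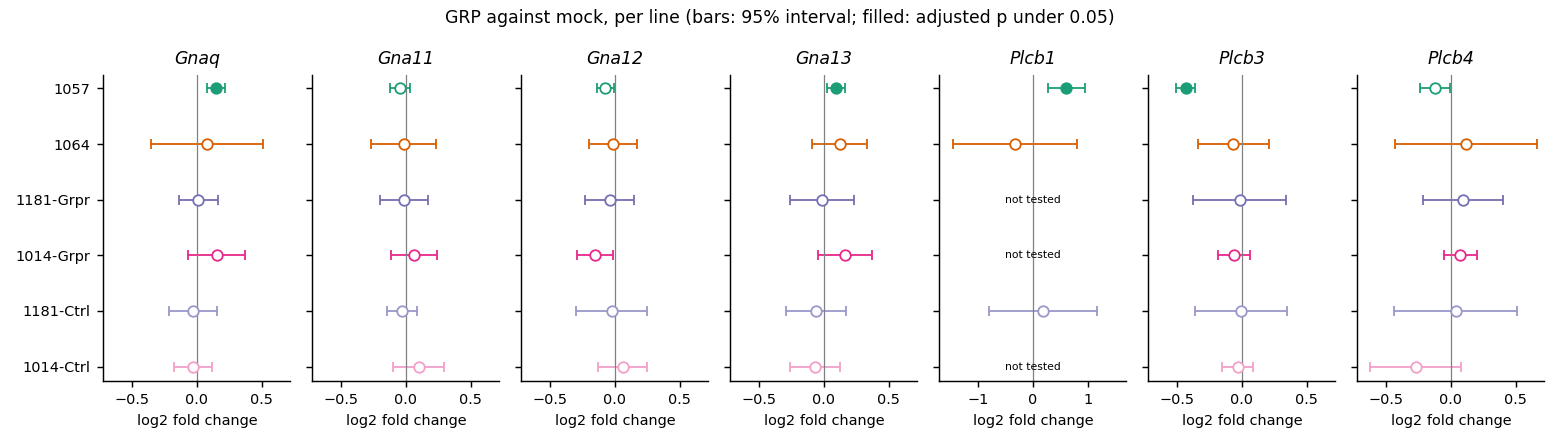
Log2 fold change of GRP against mock for 7 genes in each line, with 95% intervals from edgeR; filled points passed an adjusted p of 0.05, and Plcb1 was not tested in 1181-Grpr, 1014-Grpr and 1014-Ctrl for low counts. Filled points occur in line 1057 only, for Plcb1, Gnaq, Gna13 and Plcb3.

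Gna13 is given by replicate number because in 1064 and 1014-Grpr libraries with the same number deviated together. In 1014-Grpr Gna13 had 117, 123 and 104 normalised CPM in mock cells, 125, 139 and 120 with GRP, and 109, 119 and 96.1 with GRP+RC, so that groups overlapped but each number went the same way, by 0.11, 0.18 and 0.20 on the log2 scale with GRP and by −0.20, −0.23 and −0.32 from GRP to GRP+RC. In 1064 the values were 96.1, 87.2 and 86.2 in mock, 104, 99.0 and 90.7 with GRP and 96.4, 84.7 and 82.1 with GRP+RC, or 0.11, 0.18 and 0.07 with GRP and −0.11, −0.23 and −0.14 on adding RC. In the GRPR-negative line 1181-Ctrl the 3 numbers went the other way with GRP, by −0.11, −0.03 and −0.04, and in 1181-Grpr and 1014-Ctrl they did not share a direction. The fit without the replicate number gave 0.16 in 1014-Grpr (adjusted p = 0.235) and 0.12 in 1064 (adjusted p = 0.513).

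With the replicate number as a block, Gna13 rose with GRP in 1014-Grpr (0.17, adjusted p = 0.000918, where 53.6% of genes passed) and in 1064 (0.12, adjusted p = 0.0392, where 43.5% passed). It was lower with GRP+RC than with GRP in 1014-Grpr (−0.25, adjusted p = 3.25e-05, 38.7% of genes) and in 1064 (−0.16, adjusted p = 0.0259, 21.2% of genes), where the fits without the block gave adjusted p = 0.129 and 0.684. The same block brought Gnaq to 0.16 (adjusted p = 0.00301) and Gna12 to −0.15 (adjusted p = 0.00128) with GRP in 1014-Grpr, Gnaq to 0.12 with GRP+RC against mock there (adjusted p = 0.0449, 17.3% of genes), and Plcb4 to 0.13 with GRP in 1064 (adjusted p = 0.0443). Without it these had adjusted p = 0.285, 0.0995, 1 and 0.845. In TPM the median gene fell with GRP by 0.15 in 1064, 0.12 in 1014-Grpr and 0.08 in 1057, and Gna13 was then −0.0021 in 1064, 0.06 in 1014-Grpr and 0.02 in 1057, that is 0.15, 0.18 and 0.10 above the median gene, so its direction in 1064 flipped with the scaling. No member passed in 1181-Ctrl with the block.

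**Figure D4:**
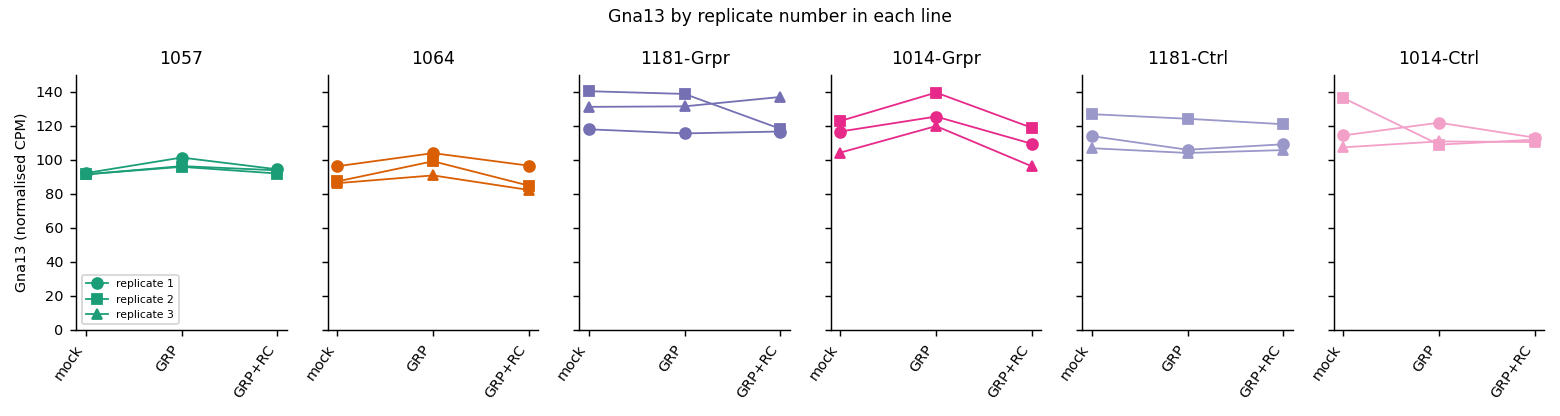
Normalised CPM of Gna13 in mock, GRP and GRP+RC libraries of the 6 lines, joined by replicate number, on an axis from 0. In 1057, 1064 and 1014-Grpr each of the 3 numbers is higher with GRP than in mock and lower again with GRP+RC. In 1181-Ctrl each is lower with GRP than in mock, and in 1181-Grpr and 1014-Ctrl, whose replicate 2 holds the doubtful GRP+RC and mock library respectively, the numbers do not all move one way.

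Over the 4 GRPR-positive lines fitted together no member passed GRP against mock, where 27.2% of 15907 genes did. Plcb3 was at −0.15 (adjusted p = 0.108), Gna13 at 0.09 (adjusted p = 0.128), Gna12 at −0.07 (adjusted p = 0.144) and Gnaq at 0.10 (adjusted p = 0.222), of which Plcb3 and Gna13 had an unadjusted p under 0.05. DESeq2 passed 0 of them and limma on log2 TPM passed 2. With the replicate number within each line as a block, Gnaq, Gna12, Gna13 and Plcb3 passed (adjusted p = 0.0175, 0.0419, 0.0224 and 0.0346, edgeR), where 40.5% of genes did. Of these lines 2 were paired by number in all treatments, 1181-Grpr was so between mock and GRP, and 1057 was not. Over the 2 GRPR-negative lines the 7 values lay between −0.11 and 0.04 with 0 passing at an adjusted or unadjusted p of 0.05, as with DESeq2, and 0 of 14549 genes passed. From GRP to GRP+RC over the 4 lines Gna13 had the largest α-subunit value (−0.12, adjusted p = 0.140), and no member passed by edgeR or DESeq2, where 5.15% of genes did, while with the block Gna13 passed (adjusted p = 0.0334) beside 13.7% of genes. The GRP effect did not differ by test between 1014-Grpr and 1014-Ctrl or between 1181-Grpr and 1181-Ctrl for any member (smallest adjusted p = 0.415), with 4.63% and 0 of genes passing. The intervals were wide: for Gnaq the difference in the 1014 pair was 0.18 with a 95% interval of −0.12 to 0.48. Without the doubtful mock library it was 0.17 (adjusted p = 0.468), and 11.9% of genes then passed in that pair. Outside 1057, RC alone, GRP+RC against mock and GRP+RC against GRP passed 0 members in any line by edgeR without the block or by DESeq2, and at an unadjusted p under 0.05 there was 1, Gna13 from GRP to GRP+RC in 1014-Grpr. Of all genes 0.947% passed there for GRP+RC against mock and 11.8% for GRP+RC against GRP, 0.029% passed for GRP+RC against GRP in 1064, and 0 passed in each of the remaining contrasts with RC outside 1057.

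The other genes of the pathway were taken from a list of 76 that covered the remaining Gα subunits, Gβγ, the other phospholipases C, the inositol phosphate and calcium arm, diacylglycerol kinases, exchange factors and kinases below Gα12 and Gα13, receptor kinases and arrestins, and Gα chaperones. With GRP in 1057, 19 of the 62 tested rose and 18 fell, 59.7% in all beside 25.7% and 26.9% of all genes, or 52.6% together. In 1014-Grpr 16 of 62 rose and 8 fell, beside 16.3% and 12.7% of all genes, in 1064 6 of 60 rose and 4 fell, beside 3.62% and 2.76%, and in 1181-Grpr and both GRPR-negative lines 0 passed by the same edgeR test. With the replicate number as a block, 26 of 62 rose and 17 fell in 1014-Grpr, and 21 of 60 rose and 13 fell in 1064, where 53.6% and 43.5% of all genes passed. In 1057 the diacylglycerol kinases had 4 of 8 higher and 1 lower, the inositol phosphate and calcium arm 2 of 12 higher and 6 lower, and the receptor kinases and arrestins 0 of 6 higher and 3 lower.

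Several genes of that list passed in the same direction in more than 1 GRPR-positive line, and those with the largest mean change are given here. Rock2, a kinase that acts on the actin cytoskeleton, rose by 1.67 in 1057, 1.47 in 1064 and 1.03 in 1014-Grpr (adjusted p = 9.74e-09, 0.0301 and 1.12e-05, edgeR quasi-likelihood test). Trio, an exchange factor for small GTPases that Gαq can engage, rose by 1.08 in 1057 and 1.15 in 1014-Grpr and was at 0.73 in 1064 (adjusted p = 0.127). Inpp5a, which removes a phosphate from inositol trisphosphate and so ends its signal, rose by 1.10, 0.77 and 1.04 in 1057, 1064 and 1014-Grpr, whereas Itpkb, a kinase that phosphorylates inositol trisphosphate, fell by 0.52, 0.87 and 0.48. Atp2a2, the pump that returns calcium to the endoplasmic reticulum, rose by 0.73, 0.84 and 0.88, and Plcl1, a phospholipase C-like protein without lipase activity, rose by 0.98, 1.82 and 0.82. Dgkh, a diacylglycerol kinase, rose by 1.08 in 1057 and 2.13 in 1014-Grpr and was at 1.02 in 1064 (adjusted p = 0.0573). Gnb4, a Gβ subunit, rose by 0.61 in 1057 and 0.97 in 1014-Grpr and was at 1.02 in 1064 (adjusted p = 0.0807). None of these 8 genes passed in 1181-Grpr, where 0 of 14506 genes did. Mock cells of that line held a mean of 17.5 TPM of Grpr, against 181 in 1014-Grpr, 327 in 1057 and 1226 TPM in 1064. The part of the receptor level in this was not tested.

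On adding RC to GRP, part of these changes was smaller in 1057 and 1014-Grpr. In 1057, 16 of the 62 listed genes tested rose and 8 fell, beside 11% and 13.7% of all genes. In 1014-Grpr 2 of 62 rose and 6 fell, beside 3.71% and 8.06%, and in 1064 0 of 60 passed, beside 0.029% of all genes. With the replicate number as a block, 11 of 62 rose and 20 fell in 1014-Grpr, where 38.7% of all genes passed. In 1064 the block gave 5 of 60 higher and 11 lower, where 21.2% of all genes passed. Without the block the Gβγ genes, with Gnb4, had 4 of 10 higher and 0 lower in 1057, and 0 of 12 passing in 1014-Grpr. The other phospholipases C, with Plcl1, had 1 of 6 higher and 0 lower in 1014-Grpr. The rise of Gnb4 with GRP was thus not shown to be reversed in either line, nor that of Plcl1 in 1014-Grpr. The inositol phosphate and calcium arm, with Atp2a2, had 4 of 12 higher and 3 lower in 1057. In 1014-Grpr it had 1 of 13 higher and 1 lower. Rock2 fell by 0.49 in 1057 and 0.72 in 1014-Grpr, Inpp5a by 0.25 and 0.64 and Trio by 0.34 and 0.78, and Itpkb rose by 0.33 and 0.36. Dgkh fell by 1.27 in 1014-Grpr and was at 0.07 in 1057 (adjusted p = 0.781, edgeR quasi-likelihood test).

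The subunits that differed most between lines in mock cells were not among the 8 members. Gnao1, a Gα of the inhibitory class known from neurons, was at 0.0100 TPM in 1057 and at 12.2 TPM in 1064, 23.8 in 1181-Ctrl, 27.4 in 1181-Grpr, 35.8 in 1014-Ctrl (38.2 without the doubtful library) and 39.4 TPM in 1014-Grpr. Gng11, a Gγ subunit, was at 0.183 TPM in 1181-Ctrl and 29.9 TPM in 1181-Grpr, and at 129 TPM in 1064, with 41.8 in 1057, 88.1 in 1014-Ctrl (121 without the doubtful library) and 121 TPM in 1014-Grpr. Plcl2, a relative of Plcl1, was listed at 0 in all mock libraries of 1064 and 1014-Grpr and stood at 4.66 TPM in 1057. Gnai1, Dgkg and Grk3 were also listed at 0 in all mock libraries of at least 1 line and reached at most 1.24, 0.71 and 0.31 TPM in any library.

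Plcb1 was the 1 tested member whose mock line means spanned more than 4-fold. Over the 24 groups of line and treatment, Tmem255a and Rps28 were among the 3 genes of 16596 whose mean log2 CPM followed it most closely, with Pearson's r of 0.967 and 0.966. The groups share their 6 lines, so these values describe the order of the lines, and Rps28 encodes a ribosomal protein, whose counts can be shared with processed copies elsewhere in the genome.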

How the data were processed

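RNA was sequenced from 72 samples of 6 mouse melanoma lines as stranded, polyA-selected, paired-end libraries, and per the study's methods the reads were mapped with STAR to mm10 (GRCm38), which also gave the expression matrices. The submitters' processing notes also name FastQC 0.11.5. The deposited table of raw counts per gene holds whole read counts without normalization by the authors, and whether counting used strand is not given in the sources used here. The deposited table of TPM, made by the authors, scales the counts by gene length to the same sum in each library. In it the 12 columns of line 1057 are written with a decimal comma, which makes them text (other than plain numbers) in the deposited file, and they were read with the comma as a decimal point.

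Counts were tested with edgeR 4.0.16 in R 4.3.3 (TMM normalisation, filterByExpr, quasi-likelihood F-test, Benjamini-Hochberg adjustment over all genes tested), with 1 fit of 12 libraries per line for treatments, 1 fit of 18 mock libraries for the 15 pairs of lines (adjusted over all genes of all pairs), 1 fit for the GRPR-positive and 1 for the GRPR-negative lines, and interaction terms for Grpr against control versions. The difference of 1057 from each other line was added after the data had been seen. A gene passed at an adjusted p under 0.05 and was called when its absolute log2 fold change also exceeded 1. CPM were normalised within a line for treatments. Coordinates and overlaps came from GENCODE on GRCm38, promoters from RefSeq on GRCm38.p6, and figures were drawn with matplotlib 3.10.9. The scripts were tested on simulated data. Protein sequences were not used here.

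The members, the 76 pathway genes and the markers were chosen with earlier results of these data known. All 8 members were named in each comparison. Of the pathway list, up to 8 genes were named that passed GRP against mock in 1 direction in at least 2 GRPR-positive lines, by mean size, and up to 6 with the largest span of mock line means, and the 3 genes most like any member with a span above 4-fold, of which 1 is not reported here. Replicates are separate samples by label, and the study's methods describe its cell culture work as done in biological replicates without saying more of these libraries, so p-values measure the spread between these samples. Samples with the same replicate number deviated together in 1064 (correlation of deviations from group means 0.583 to 0.840 in 18 of 18 pairs of libraries), 1014-Grpr (0.386 to 0.537, 18 of 18) and 1181-Ctrl (0.740 to 0.872, 18 of 18). They did not meet this in 1057 (−0.154 to 0.110), 1181-Grpr (15 of 18 above 0.1) or 1014-Ctrl (16 of 18). In 1181-Grpr and 1014-Ctrl every pair below 0.1 held the library that went against its label. The limit of 3 counts used for low genes covers counting error only. DESeq2 1.42.0, limma 3.58.1 on log2(TPM + 0.1) and log2(TPM + 1), RLE normalisation, no filter, 1 fit of all 72 libraries, the replicate block and leaving out libraries were the alternatives.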

Additional observations from a re-analysis of the deposited data

How the results depend on the processing

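With no limit on the fold change, the counts of members called rose from 0 to 4 for GRP against mock, 1 for RC against mock, 3 for GRP+RC against mock and 3 for GRP+RC against GRP, and from 10 to 42 for pairs of lines in mock. Leaving out 1 replicate number gave 5 to 10 calls for pairs of lines, with 5 without replicate 3, and leaving out any 1 library gave 0 calls for the 4 treatment contrasts. The replicate block gave 11 calls for pairs of lines and 0 elsewhere. In 1057, where the numbers do not pair, it made Plcb4 pass with GRP (−0.12, adjusted p = 0.0343). Beside this and the block values given with the results, it changed no other treatment call.

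The fall of Plcb3 with GRP in 1057 passed under all 20 alternatives (−0.51 to −0.40). With no filter Gna13 did not pass with GRP in 1057 (adjusted p = 0.0994). On log2 TPM, Gna11 with RC (adjusted p = 0.102), Gnaq with GRP+RC (0.0809) and Plcb1 from GRP to GRP+RC (0.0772) no longer passed there. In 1014-Grpr, Gna12 passed on log2 TPM (−0.26, adjusted p = 0.00814) and without GRP replicate 1 (−0.21, adjusted p = 0.0386). Direction reversed for Gna13 with GRP in 1064 on log2 TPM (−0.002068 and −0.002064 with pseudocounts of 0.1 and 1), by the lower TPM of the median gene, and for Plcb4 there without mock replicate 3 (−0.022) or without GRP replicate 1, where it took the lowest of its values without 1 library (−0.042 to 0.34), for which the cause was not tested. Depth limits Plcb1 and Plcb2, whose counts did not exceed 83 and 6.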
